A study of Mus musculus with 10 samples.

Results

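Rogdi and the proteins of the vesicular proton pump were followed in RNA from mouse cortical neurites. The 10 genes were chosen by name: Rogdi, its rabconnectin partners Dmxl1, Dmxl2 and Wdr7, and 6 subunits of the pump, Atp6v0a1, Atp6v0c, Atp6v1a, Atp6v1b2, Atp6v1e1 and Atp6v1h. All 10 were found among the 45195 gene IDs of the expression matrix, and all 10 were among the 15712 genes that reached 1 in 2 or more libraries, which were the genes tested. Rogdi was singled out with earlier results of these data known. The sources do not say which value singled it out, so its values after injury in wild-type neurites and between genotypes after injury, and the difference between these, are given as a description without a test. The other 9 genes were taken as the known partners of Rogdi.

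The study cultured cortical neurons from C57BL/6 embryos (E16.5) on transwell membranes with 3 µm pores, so that neurites grow through to the underside while cell bodies stay above. The 4 groups below were sequenced: injured neurites of Cpeb1 flox/flox neurons, called knockout here (2 libraries), naive knockout neurites (2 libraries), injured wild-type neurites (3 libraries) and naive wild-type neurites (3 libraries). All neurons, wild type included, received an AAV2 vector with Cre under the ubiquitous CAG promoter at plating. Injured neurites were wiped off the underside at day 7 and lysed at day 8, 24 hours later, and naive neurites were lysed at the same age of the culture. In injured samples the RNA is therefore from neurites present 24 hours after the cut, and injury and the age of the neurites cannot be told apart. The upper side with the cell bodies was wiped clean before lysis. The labels do not say whether replicates came from separate cultures, so p-values measure the spread between these libraries, which may be technical. Cpeb1 encodes a protein that binds cytoplasmic polyadenylation elements in 3′ untranslated regions and controls poly(A) tail length and translation.

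The pump, called the V-ATPase, is a rotary machine that spends ATP to push protons into synaptic vesicles, endosomes and lysosomes. Its V1 sector sits in the cytosol and splits ATP, its V0 sector spans the membrane and carries the protons, and the proton gradient drives the loading of neurotransmitter into synaptic vesicles. Pump activity is set by joining and parting the sectors: in yeast the RAVE complex rejoins V1 to V0, and in animals the rabconnectins DMXL1 or DMXL2 with WDR7 and ROGDI form the related complex. Loss of ROGDI in people causes Kohlschütter-Tönz syndrome, with epilepsy and defective tooth enamel.

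Rogdi is a short gene on the minus strand at chr16:5008730-5013553 (GRCm38). Its promoter is shown because Rogdi is the gene whose level differed most among libraries within the complex, and the promoter of Atp6v1a because it was the only one of 6 members with an entry that held the letters CACGTG, the core of the CLEAR element that TFEB, a regulator of lysosomal genes, binds. Both windows run from 250 bases before to 50 after a start listed for the gene, on the gene's own strand (RefSeq, GRCm38.p6). Capitals mark CCAAT in Rogdi (chr16:5013504-5013803) and TCACGTGA in Atp6v1a (chr16:44139210-44139509). The Atp6v1a window lies inside the gene as annotated in GENCODE (chr16:44085402-44139705, minus strand), downstream of its outermost start.
Rogdi: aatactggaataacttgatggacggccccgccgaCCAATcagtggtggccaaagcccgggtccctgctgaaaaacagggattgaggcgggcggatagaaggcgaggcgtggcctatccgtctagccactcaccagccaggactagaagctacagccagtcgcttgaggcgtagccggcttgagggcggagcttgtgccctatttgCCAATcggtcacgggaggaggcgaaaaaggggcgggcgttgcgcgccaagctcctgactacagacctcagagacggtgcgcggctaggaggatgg
Atp6v1a: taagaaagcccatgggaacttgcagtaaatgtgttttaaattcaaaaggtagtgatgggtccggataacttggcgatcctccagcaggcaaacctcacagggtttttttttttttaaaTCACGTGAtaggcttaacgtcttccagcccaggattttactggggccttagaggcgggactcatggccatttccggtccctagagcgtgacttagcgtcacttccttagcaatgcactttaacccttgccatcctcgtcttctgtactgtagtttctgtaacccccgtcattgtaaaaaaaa
Each motif was searched on both strands. CCAAT stood in the Rogdi window at 2 places and was found in 37.8% of the 13296 promoter windows of tested coding genes. CACGTG was found in 9.67% of those windows, and TCACGTG, which contains it, in 5.72%. Dmxl2, Atp6v0a1, Atp6v0c and Atp6v1e1 had entries without CACGTG.

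The binding motif of CPEB1 was looked for in the longest annotated 3′ untranslated region of each gene, as TTTTAT or TTTTAAT on the transcript strand. Rogdi held neither in its 481 bases, and neither did Atp6v0a1, Atp6v0c or Atp6v1e1. Dmxl1 held 12 matches in 3076 bases, Dmxl2 and Wdr7 held 3 each, Atp6v1a 2, and Atp6v1b2 and Atp6v1h 1 each. In all 6 of 10 members held a match, against 63.0% of 13116 tested coding genes. Within 200 bases of the end, where such elements are known to act, 3 members held one, against 28.5% of those genes. The match nearest the end is shown for 4 members, as 30 bases on the transcript strand (GRCm38) with the motif in capitals, so that the letters searched can be seen in place.
Dmxl2, chr9:54365175-54365204: ttaagagttaaTTTTAATaaaatgatgaac
Atp6v1a, chr16:44086686-44086715: aatatcagagacTTTTATatactcaattac
Atp6v1b2, chr8:69113636-69113665: gcatgattataTTTTAATgtagaaaatgtg
Atp6v1h, chr1:5162235-5162264: aagcaaatagtTTTTAATttaatgattact
The match in Dmxl2 began 36 bases before the end of the region and that in Atp6v1b2 65 bases before it, while those of Atp6v1h and Atp6v1a began 284 and 1302 bases before it. Having such letters is a description and not evidence of binding.

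Values are those deposited, on a scale normalised to transcript length and library depth (FPKM), so they may be set side by side between genes. Steps in the low values gave a depth of about 21120000 to 27640000 fragments per library, and a Rogdi value rested on about 356 to 3065 fragments. Between 12231 and 13143 genes reached a value of 1 per library, and injured wild-type replicate 3 had the fewest such genes and correlated least with the other libraries on average (0.839).

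Cpeb1, the deleted gene, had values of 1.14 and 3.15 in injured knockout neurites, 5.97 and 0.356 in naive knockout neurites, 1.65, 13.8 and 22.6 in injured wild-type neurites, and 7.16, 5.96 and 5.86 in naive wild-type neurites. The library labelled naive knockout replicate 1 thus lay among the naive wild-type libraries, and the library labelled injured wild-type replicate 1 lay among the injured knockout libraries. Which exons are deleted is not given in the sources used here, so reads outside them may add to these values. Results on Rogdi are given with and without these 2 libraries, and leaving them out leaves a single naive knockout library.

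Rogdi, the ROGDI subunit of the rabconnectin complex, had its lowest values in injured wild-type neurites and its highest in injured knockout neurites. It stood at 63.5 and 88.7 in injured knockout libraries, 48.3 and 41.2 in naive knockout libraries, 13.7, 14.7 and 21.1 in injured wild-type libraries, and 38.9, 39.5 and 46.9 in naive wild-type libraries. The 3 injured wild-type libraries lay below all other libraries and the 2 injured knockout libraries lay above all others, while the naive groups overlapped. The mean was 76.1 ± 17.9 in injured and 44.8 ± 5.07 in naive knockout neurites (SD, n = 2 each), and 16.51 ± 4.004 in injured and 41.8 ± 4.44 in naive wild-type neurites (SD, n = 3 each).

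**Figure D1:**
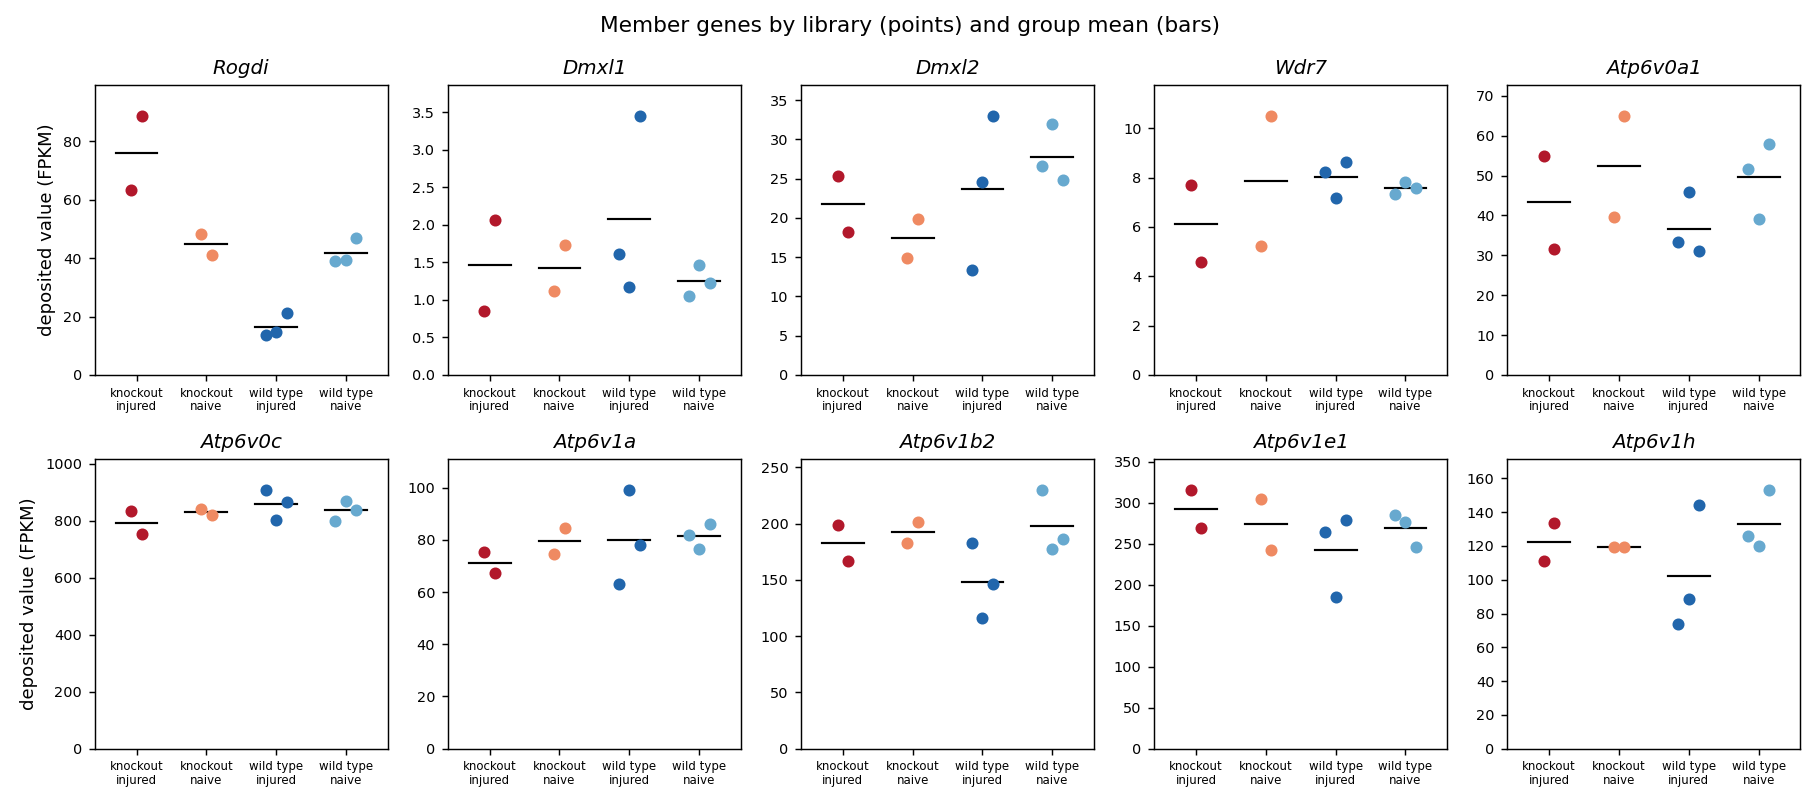
Deposited value (FPKM scale, vertical axis from 0, a separate scale per gene) of each of the 10 genes in every library; points are libraries and bars are group means, with injured and naive knockout and then injured and naive wild-type neurites from left to right. Rogdi is the panel in which the 3 injured wild-type libraries (13.7 to 21.1) and the 2 injured knockout libraries (63.5 and 88.7) stand apart from the naive libraries between 38.9 and 48.3.

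On the log2(value + 1) scale, on which all fold changes here are given and which understates changes of low genes, Rogdi fell by 1.31 ± 0.26 (SE) after injury in wild-type neurites. It was higher by 2.14 ± 0.29 in injured knockout than in injured wild-type neurites. The injury difference in knockout minus that in wild-type neurites was 2.04 ± 0.42. With both libraries whose Cpeb1 value went against their label left out, these were -1.19, 2.03 and 2.04. These are the values that may have singled Rogdi out, and nothing is supported with them.

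The remaining comparisons of Rogdi did not pass the test over all genes, which was limma with Benjamini-Hochberg adjustment at a threshold of 0.05. Injured knockout neurites differed from naive knockout neurites by 0.74 ± 0.32 (SE, adjusted p = 0.852, limma). Without naive knockout replicate 1, which leaves a single naive knockout library, the difference was 0.85. The injured knockout libraries enter the values that may have singled Rogdi out, so this comparison is a description and supports nothing. Both injured knockout libraries lay above both naive ones, as in 13.5% of all genes tested. Naive knockout neurites differed from naive wild-type neurites by 0.10 ± 0.29, with an interval of -0.54 to 0.73 and an adjusted p of 1. That interval leaves room for a difference in either direction.

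The sums of several marker lists also differed between some of the groups. Injured wild-type libraries lay below all others in the sum of neuronal markers and above all others in that of nuclear-retained RNAs. Sums of interneuron markers were low in the injured libraries of both genotypes. The summed value of 12 neuronal markers was 3075 to 4073 in injured knockout, 4036 to 4405 in naive knockout, 2216 to 3013 in injured wild-type and 3496 to 3811 in naive wild-type libraries, a sum carried by a few abundant genes. Single markers went both ways: after injury in wild type 5 of 12 had a positive and 7 a negative fold change, between injured genotypes 7 were positive and 5 negative, and 0 of 12 passed in any comparison. The 10 nuclear-retained RNAs, of which 9 were tested, summed to 1835 to 2986 in injured knockout, 2357 to 3249 in naive knockout, 6113 to 7339 in injured wild-type and 2791 to 4212 in naive wild-type libraries. Of the 9 tested, 2 were positive and 7 negative after injury in wild type, where the sum rose, and 3 and 6 between injured genotypes. Of them Malat1 was higher after injury in wild type by 1.23 (adjusted p = 0.0455, limma) and was lower in injured knockout neurites by 1.79 on the log2 scale (adjusted p = 0.02, limma), a call lost under 9 of 22 alternatives, among them without injured knockout replicate 1 (fell by 1.30). The 12 astrocyte markers summed to 871 to 987 in injured knockout, 630 to 759 in naive knockout, 853 to 1824 in injured wild-type and 514 to 650 in naive wild-type libraries, and 2 of them, Glul and Sox9, were called higher after injury in wild type, as was 1 of 10 radial glia markers, Vim. Interneuron markers, 12 in all, summed to 70.0 to 124 in injured knockout, 510 to 875 in naive knockout, 58.1 to 91.2 in injured wild-type and 465 to 730 in naive wild-type libraries. Of them 5, Gad1, Sst, Npy, Dlx1 and Dlx5, were called lower after injury in wild type and 1, Sst, after injury in knockout. Of all 15712 genes tested, 110 were called higher and 39 lower after injury in wild type, and 5 lower after injury in knockout. Between injured genotypes 14 of all genes tested were called lower. The markers were chosen with earlier results of these data known. The 10 microglial markers summed to 0.658 to 33.2 in injured knockout, 30.6 to 35.5 in naive knockout, 0.998 to 9.7 in injured wild-type and 0.293 to 6.03 in naive wild-type libraries. Cx3cr1 and Tmem119 were at 0 in all. Between naive genotypes all 6 tested were positive and 0 passed. The part of these differences in the values of Rogdi was not tested, and in bulk RNA fewer neurites of a kind and less RNA in each cannot be told apart.

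The rabconnectins are the large scaffolds that carry ROGDI. Dmxl2, rabconnectin-3 alpha, found on synaptic vesicles, stood at 25.3 and 18.2 in injured knockout, 14.9 and 19.9 in naive knockout, 13.4, 24.6 and 33.0 in injured wild-type and 26.6, 31.9 and 24.8 in naive wild-type libraries. The 3 injured wild-type libraries spanned the whole range of the gene, so the injury groups overlapped. In naive neurites both knockout libraries lay below the 3 wild-type ones, a difference of -0.65 ± 0.39 that did not pass (adjusted p = 1, limma). Dmxl1, its widely expressed paralogue, lay between 0.856 and 3.45 in all libraries, and Dmxl2 made up 89.2% to 96.7% of the summed value of both. Wdr7, rabconnectin-3 beta, the WD-repeat partner of both, stood at 7.71 and 4.57 in injured knockout, 5.24 and 10.5 in naive knockout, 8.24, 7.17 and 8.63 in injured wild-type and 7.32, 7.84 and 7.57 in naive wild-type libraries. The knockout libraries of Wdr7 spread on both sides of the wild-type ones.

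The log2 ratio of Rogdi to Dmxl2 averaged 1.81 ± 0.68 in injured and 1.37 ± 0.45 in naive knockout neurites (SD, n = 2 each), and -0.45 ± 0.42 in injured and 0.59 ± 0.31 in naive wild-type neurites (SD, n = 3 each). The injured and naive knockout libraries overlapped in this ratio, at 1.32 and 2.29 against 1.69 and 1.05, while the 3 injured wild-type libraries lay below all others. The ratio holds the Rogdi values described above and gets no test.

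Of the V0 sector, Atp6v0a1 encodes the a1 subunit, the form of the subunit lining the proton path that is known from synaptic vesicles. It stood at 55.0 and 31.6 in injured knockout, 39.6 and 64.9 in naive knockout, 33.3, 45.7 and 31.0 in injured wild-type and 51.7, 39.1 and 58.0 in naive wild-type libraries, and all groups overlapped. Atp6v0c, which encodes the proteolipid of the rotating ring, was the most abundant of the 10 genes and the steadiest, between 753 and 909 in all 10 libraries with a coefficient of variation of 5.21%, against 54.9% for Rogdi. Its injury difference in wild-type neurites was 0.04 ± 0.13 (95% interval -0.24 to 0.32), the narrowest interval among the members.

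Atp6v0c has a near-identical processed pseudogene, Atp6v0c-ps2 at chr6:37806086-37806550 (GRCm38), 99.8% identical over 465 bases, whose reads cannot be cleanly told from its own. Atp6v0c-ps2 had values of 67.6 and 225 in injured knockout libraries and 46.2 and 202 in naive knockout libraries, while the 3 injured wild-type libraries were listed at 0 and the naive wild-type ones at 0.820, 0 and 0. All 4 knockout libraries, the one with a wild-type-like Cpeb1 value included, lay above all 6 wild-type libraries, and the wild-type-labelled library with a low Cpeb1 value was listed at 0. It passed between genotypes in naive (adjusted p = 0.000775) and injured neurites (adjusted p = 0.000298, limma), and under all 22 alternatives run for each. The 2 genes together summed to 903 and 978 in injured knockout, 889 and 1022 in naive knockout, 909, 804 and 867 in injured wild-type and 802, 870 and 839 in naive wild-type libraries. Values are per transcript length, and the copy is shorter than Atp6v0c, whose longest coding transcript has 1183 bases. The sum therefore does not restore the reads that the 2 genes share.

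Of the V1 sector, Atp6v1a encodes the catalytic subunit A, and Atp6v1b2 encodes subunit B, which completes the ATP-splitting ring. Atp6v1a lay between 67.3 and 75.3 in injured knockout, 74.7 and 84.5 in naive knockout, 63.1 and 99.2 in injured wild-type and 76.7 and 86.2 in naive wild-type libraries. Atp6v1b2 stood at 199 and 167 in injured knockout, 183 and 202 in naive knockout, 183, 116 and 146 in injured wild-type and 230, 178 and 186 in naive wild-type libraries. Injured wild-type replicates 2 and 3 were the lowest of all 10 libraries for Atp6v1b2 while replicate 1 lay within the naive range. Its injury difference in wild-type neurites was -0.43 ± 0.20 (95% interval -0.86 to 0.00, adjusted p = 0.361, limma), and -0.26 without injured wild-type replicate 2. With 1 library left out it ran from -0.59 to -0.26.

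Atp6v1e1 encodes a stalk subunit that holds the ring in place, and lay between 184 and 316 in all libraries. Atp6v1h encodes subunit H, which bridges the sectors and silences V1 once it is free. It stood at 111 and 134 in injured knockout, 120 and 119 in naive knockout, 73.6, 88.5 and 144 in injured wild-type and 126, 120 and 153 in naive wild-type libraries. Replicates 1 and 2 of injured wild-type neurites were the lowest of all libraries and replicate 3 was among the highest, so the groups overlapped (difference -0.43 ± 0.24, adjusted p = 0.447, limma). Without injured wild-type replicate 1 the difference was -0.23, and without replicate 3 it was -0.71. In naive neurites both knockout values of Atp6v1h lay below the 3 wild-type ones, the nearest of which differed by less than 1, and the fold change of -0.15 ± 0.27 did not pass (adjusted p = 1, limma).

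**Figure D2:**
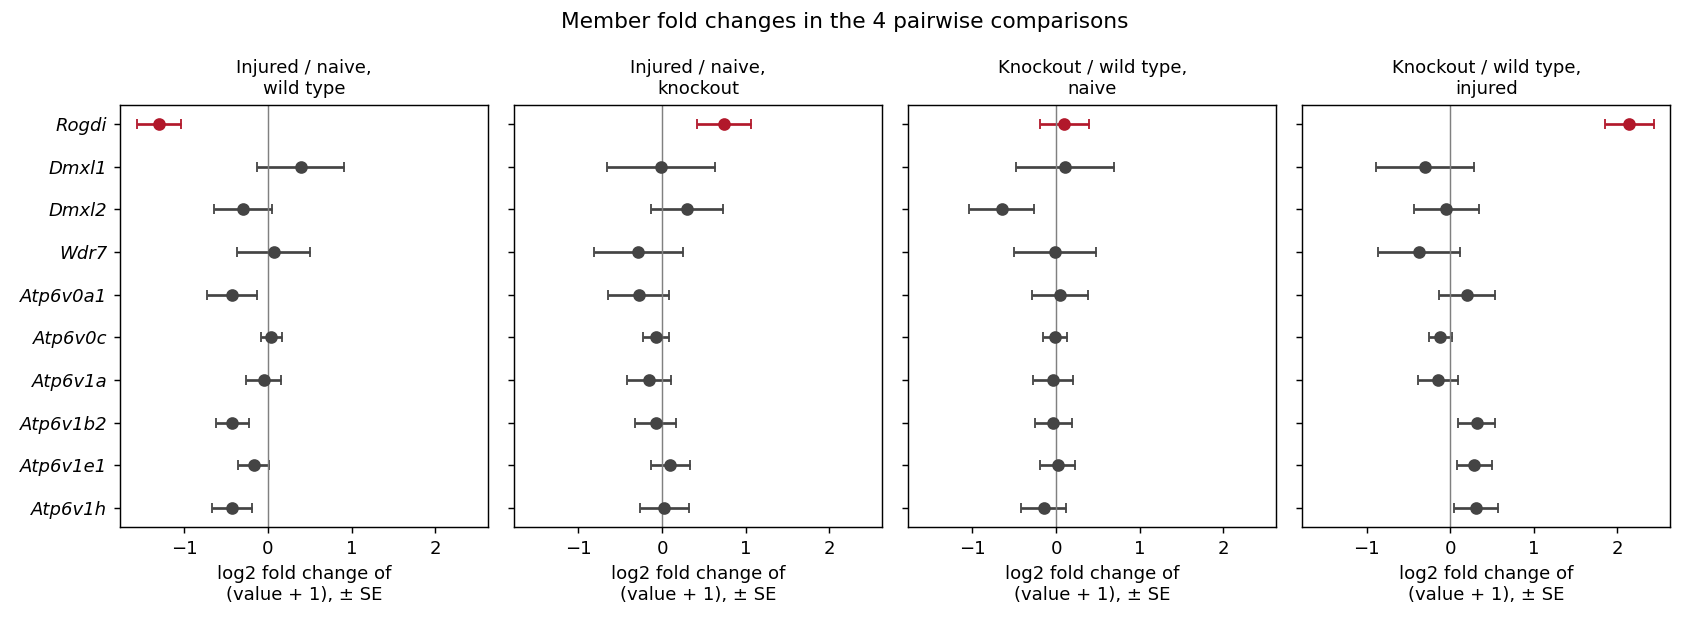
Log2 fold change of (value + 1) with its standard error for the 10 genes in the 4 pairwise comparisons; the horizontal axis is the fold change, genes run down the page, and Rogdi is in red. The 9 partners lie between -0.65 and 0.39 in all 4 panels, while Rogdi lies at -1.31 after injury in wild type and at 2.14 between genotypes after injury.

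Across the comparisons, 0 of the 9 partners were called. After injury in wild-type neurites 0.948% of all genes were called in either direction and 0.248% lower, and the median log2 fold change of the partners was -0.17, against 0.01 over all genes tested. Between genotypes in injured neurites 0.261% of all genes were called in either direction and 0.172% higher, and the partners' median was -0.05 against -0.05. Rogdi is left out of the count in both of these comparisons. Its values there may have chosen it, so it is not read against these shares. After injury in knockout neurites 0 of 10 members were called, where 0.0573% of all genes were. An unadjusted p under 0.05 was reached by 5.73% of all genes and, of the members, by Rogdi only. Its injured knockout libraries enter the values that may have chosen it, so this is not read against that share. The partners' median was -0.07 against -0.09. Between genotypes in naive neurites 0 of 10 members were called, where 0.146% of all genes were, 0 of 10 had an unadjusted p under 0.05, against 3.76% of all genes, and the partners' median was -0.02 against 0.06. For the difference between the injury effects 0 of all genes were called, and 0 of 9 partners had an unadjusted p under 0.05, against 6.23% of all genes. Groups did not overlap for 0 partners after injury in wild type (17.8% of all genes) and for 0 partners after injury in knockout (35.5%). Between genotypes they did not overlap for 2 partners in naive neurites (22.6%) and for 0 partners in injured neurites (21.9%). Rogdi, whose groups also did not overlap after injury in knockout, is left out of these counts for the reason given above. The comparisons share groups, so their counts are not separate evidence.

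The rest of the pump was read from lists of its other subunits. Of the 9 other V1 subunits 5 were tested, and of the 11 other V0 and accessory subunits 9 were, and 0 of these 14 were called in any of the 5 comparisons. The smallest p was that of Atp6v0e2, a small membrane subunit, at 257 and 238 in injured knockout, 317 and 320 in naive knockout, 149, 203 and 172 in injured wild-type and 285, 278 and 252 in naive wild-type libraries. The 3 injured wild-type libraries lay below all others, a difference from naive wild type of -0.64 ± 0.16 that did not pass (adjusted p = 0.0915, limma). Atp6v1g2, the G subunit known as the brain form, differed by -0.85 ± 0.29 there (adjusted p = 0.222, limma). Of the summed G subunit values the G2 form took 18.2% ± 9.28 in injured and 28.4% ± 1.63 in naive knockout neurites (SD, n = 2 each), and 13.8% ± 5.51 in injured and 24.4% ± 3.91 in naive wild-type neurites (SD, n = 3 each). Atp6ap2, the accessory subunit also called prorenin receptor, stood at 68.2 and 73.1 in injured against 122 and 120 in naive knockout libraries, a difference of -0.77 ± 0.25 (adjusted p = 0.670, limma). The named V1 genes also included Atp6v1f, Atp6v1d and Atp6v1g1, with smallest adjusted p of 0.408, 0.452 and 1, and the V0 genes Atp6v0e and Rnasek, with 1 and 0.937.

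**Figure D3:**
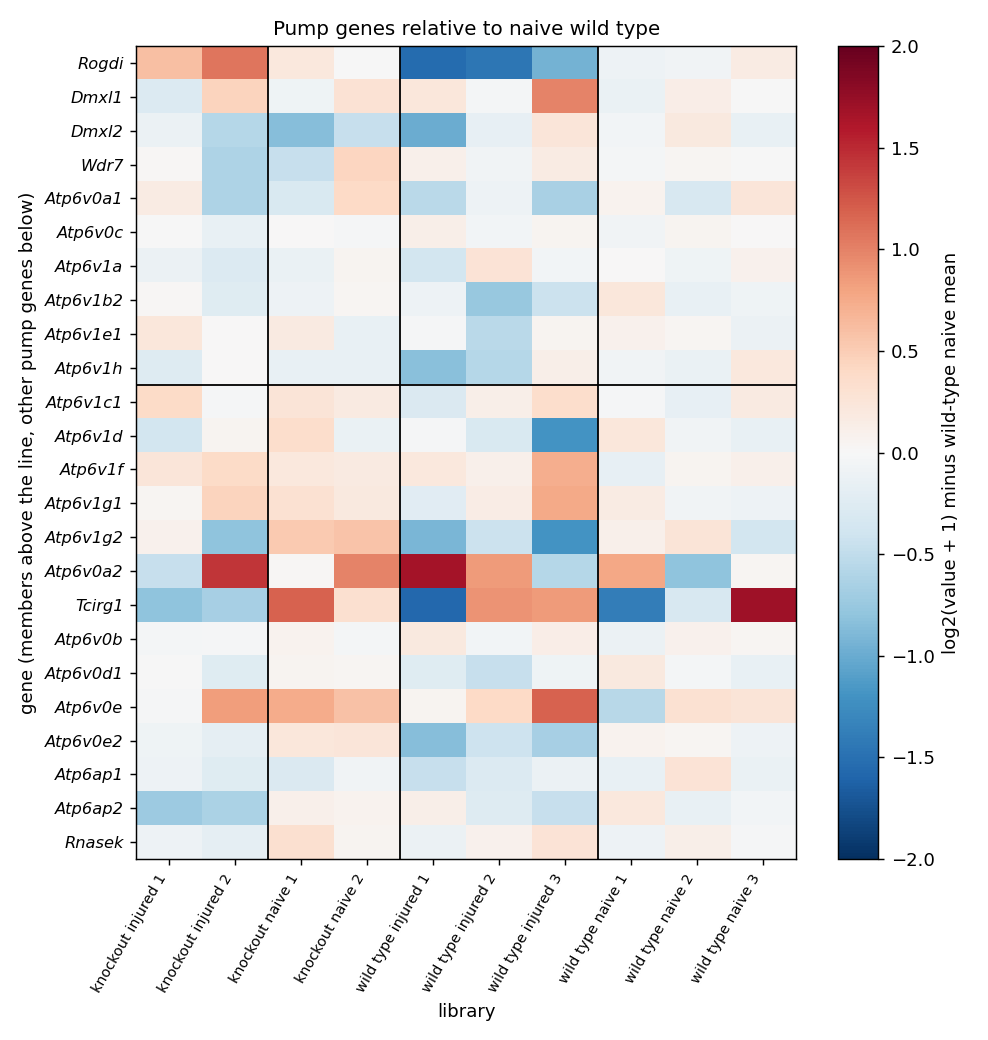
Log2(value + 1) minus the naive wild-type mean (colour) for the 10 genes, above the line, and the other tested pump subunits, below it, in each library (columns, injured and naive knockout and then injured and naive wild type). Rogdi is blue in the 3 injured wild-type columns and red in the 2 injured knockout columns, and Atp6v0c stays pale throughout.

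The kidney and other tissue-restricted forms Atp6v1b1, Atp6v1e2 and Atp6v1g3 were listed at 0 in all 10 libraries, so Atp6v1b2 and Atp6v1e1 made up the whole measured value of their subunit. Atp6v0a1 made up 61.8% to 89.2% of the summed a subunits in injured knockout libraries, 64.6% to 77.0% in naive knockout ones, 62.0% to 67.5% in injured wild-type ones and 67.9% to 84.4% in the naive wild-type ones.

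**Figure D4:**
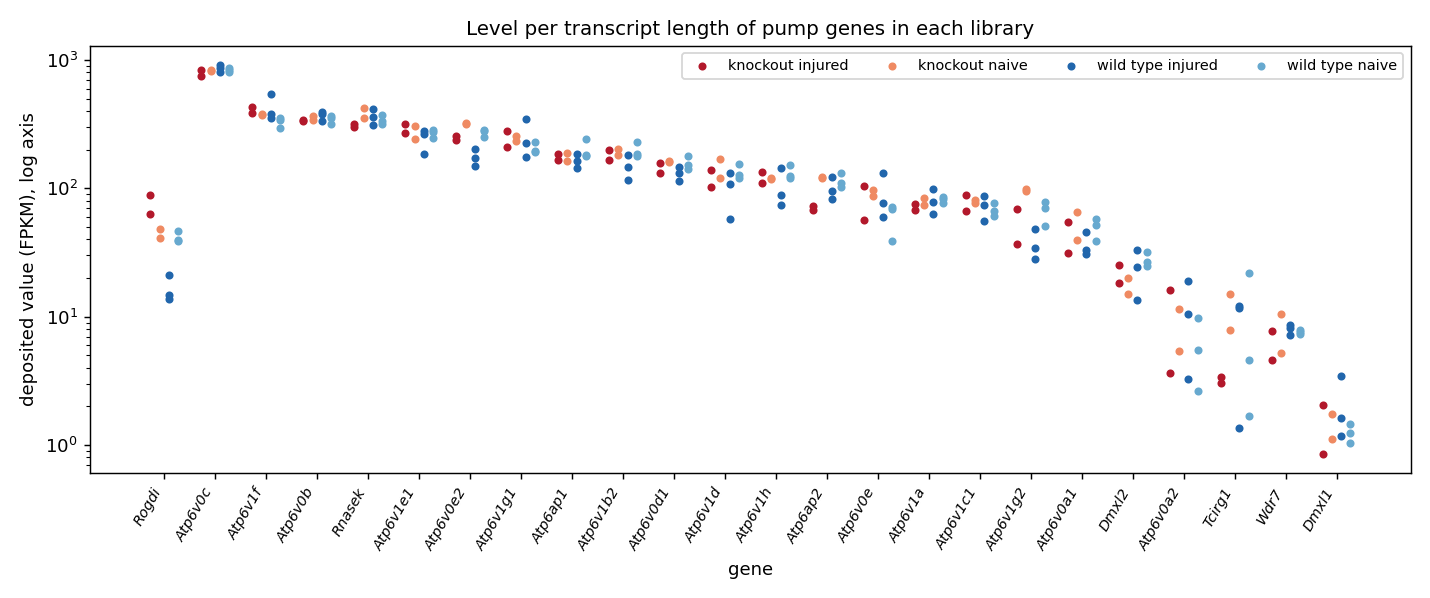
Deposited value (FPKM scale, log axis) of Rogdi, left, and of the pump genes and rabconnectins ordered by mean, in each library (points, coloured by group: red and orange for injured and naive knockout, dark and light blue for injured and naive wild type). Levels run from Atp6v0c, between 753 and 909, down to Dmxl1, between 0.856 and 3.45.

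Ordered by mean over the 10 libraries, the level per transcript length was 834 for Atp6v0c, 267 for Atp6v1e1, 179 for Atp6v1b2, 119 for Atp6v1h, 78.7 for Atp6v1a, 45.003 for Atp6v0a1, 41.6 for Rogdi, 23.3 for Dmxl2, 7.48 for Wdr7 and 1.58 for Dmxl1. Rogdi and Atp6v0a1 are neighbours whose ranges overlap (13.7 to 88.7 and 31.0 to 64.9), as are those of Rogdi and Dmxl2 (13.4 to 33.0). Other neighbours in this order overlap too, Atp6v1e1 and Atp6v1b2 from 184 to 230 and Atp6v1b2 and Atp6v1h from 116 to 153. Atp6v1h and Atp6v1a overlap from 73.6 to 99.2, and Atp6v1a and Atp6v0a1 from 63.1 to 64.9.

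Of other lists, 7 of 10 pump assembly factors, 14 of 15 genes of the Rab3 cycle, the vesicle GTPase to which rabconnectins were first linked, 13 of 18 vesicular transporters and 27 of 28 lysosomal genes were tested, and 0 of these genes passed in any of the 5 comparisons. The assembly genes with the smallest p were Tldc1, Oxr1, Tmem199 and Tbc1d24, with adjusted p of 1, 0.608, 0.697 and 0.650 at best. Rab3b, a vesicle GTPase, differed after injury in wild-type neurites by -1.42 ± 0.38 (adjusted p = 0.119, limma), Rab3a by -0.59 ± 0.19 (0.200), Rph3a, the Rab3 effector rabphilin, by -1.60 ± 0.55 (0.221), and Rims1, an active-zone scaffold, by -1.15 ± 0.47 between genotypes after injury (0.420). Slc17a5 and Slc9a9 differed between genotypes after injury by 1.80 ± 0.59 (0.313) and 1.95 ± 0.73 (0.366), and Sv2a and Slc32a1, the GABA transporter of vesicles, after injury in wild type by -0.91 ± 0.31 (0.220) and -1.19 ± 0.50 (0.317). The lysosomal genes Ctsz, Lamp1 and Npc2 differed after injury in wild type by 1.44 ± 0.46 (0.192), 0.60 ± 0.23 (0.268) and 0.70 ± 0.27 (0.271), and Gla between naive genotypes by 1.57 ± 0.62 (adjusted p = 1). Median log2 fold changes after injury in wild type were -0.21 for assembly factors, -0.29 for the Rab3 cycle, -0.67 for transporters and 0.38 for lysosomal genes, against 0.01 over all genes tested. After injury in knockout they were 0.19, -0.44, -0.12 and -0.07 in the same order, against -0.09 over all genes tested.

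The 6 genes whose log2(value + 1) was most like that of Rogdi over the 10 libraries, among 7500 tested coding genes at or above the median level, were Tpgs1 (Pearson r 0.94), Ttc4 (0.93), Ide (0.92), Calcoco1 (0.90), Mtmr2 (0.90) and Gpsm1 (0.89). Their Spearman rho was 0.94, 0.87, 0.79, 0.96, 0.87 and 0.92. These are descriptions over libraries that share culture, depth and group. The 6 genes are the top of 7500 ranked on the same values that may have chosen Rogdi, so their high r supports nothing. Ide, the insulin-degrading enzyme, stood at 17.5 and 17.7 in injured knockout, 12.4 and 18.4 in naive knockout, 4.93, 3.01 and 4.72 in injured wild-type and 12.1, 13.3 and 14.6 in naive wild-type libraries. Among the 9 partners r ran from -0.56 (Atp6v0c) to 0.63 (Atp6v1h), and rho from -0.43 (Wdr7) to 0.38 (Atp6v1e1).

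Neighbouring genes on chromosome 16 were added after the values of Rogdi were seen. Glyr1, whose end lies 356 bases from Rogdi, stood at 51.9 and 66.7 in injured knockout, 79.2 and 65.8 in naive knockout, 42.5, 54.5 and 66.2 in injured wild-type and 59.9, 54.1 and 66.7 in naive wild-type libraries, and passed in none of the 5 comparisons, nor did Anks3, Nudt16l1, Mgrn1, Ubn1 or Nagpa. An annotated antisense gene, Gm42477, shares 240 exon bases with Rogdi, 10.2% of the exon bases of Rogdi, and is not in the matrix. In a library without strand, reads from these bases cannot be told apart, and their part in the Rogdi values was not tested. Wdr7 shares exon bases with Txnl1, Atp6v1e1 with Slc25a18 and Atp6v1h with Rgs20, and in a library without strand only the reads from these shared bases, 1.15%, 0.779% and 1.30% of the exon bases of Wdr7, Atp6v1e1 and Atp6v1h, cannot be told apart.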

How the data were processed

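Neurite RNA was measured by Smart-seq2, a polyA full-length method without strand, from 1 ng of RNA with 14 and then 11 cycles of PCR, per the labels' protocols. STAR 2.4.2a, RSEM 1.2.21 and mm10 are named in the submitters' processing notes. The authors deposited 1 matrix of 45195 gene IDs in 10 libraries. Its unit was read from the values: the deposited values behave as FPKM divided by 1 factor per library (0.811 to 1.11), since multiplied back at least 99.89% of values per library lie within 0.001 of a 0.01 grid. They are not counts, and depth was estimated from their steps.

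Symbols, overlaps and untranslated regions came from GENCODE vM21 (44548 IDs matched), promoters from RefSeq, and near-identical copies from blastn 2.17.0. The 15712 genes that reached 1 in 2 or more libraries were fitted with limma 3.58.1 (R 4.3.3) on log2(value + 1), 4 group means in 1 fit of all 10 libraries with a mean-variance trend, and Benjamini-Hochberg adjustment over all genes tested at 0.05. The fit was tested on simulated data, where it called only part of the genes that differed, fewest among genes of low level, so a gene that did not pass may still differ. The members, the lists and the markers were chosen with earlier results of these data known.

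Named genes were the members, Cpeb1, up to 4 genes per pathway list with the smallest p over the 4 pairwise comparisons, the 6 genes most correlated with Rogdi, and overlapping or near-identical genes. Alternatives were other pseudocounts, filters and scalings, no trend, only the groups compared, the replicate number as a block, coding genes only, and each library left out. Leaving out both libraries whose Cpeb1 value goes against the label, and multiplying back the library factors, were added after seeing the data.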

Additional observations from a re-analysis of the deposited data

Results flagged for a closer look

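The injury difference of Rogdi had opposite signs in the genotypes: both injured knockout libraries lay above both naive knockout libraries, and all 3 injured wild-type libraries lay below all 3 naive wild-type libraries. The injury effect in knockout minus that in wild type was 2.04 on the log2 scale. Rogdi was chosen with results of these data known, so this is a description; over all genes the difference between injury effects passed for 0 genes (limma, Benjamini-Hochberg), and 979 of 15712 had an unadjusted p under 0.05. Groups of 2 and 3 libraries are too small for a check of single outlying libraries.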

How the results depend on the processing

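Rogdi kept its direction after injury in wild type, after injury in knockout, between injured genotypes and for the difference of injury effects under all alternatives run. Its fold change ran from 1.90 to 2.47 between injured genotypes and from -1.59 to -1.13 after injury in wild type. These values may have chosen Rogdi, so no call is given for them, and they are a description and no support. Between injured genotypes the fold change was 1.90 without injured knockout replicate 2. It was 2.03 without both libraries whose Cpeb1 value goes against the label. After injury in wild type the fold change of Rogdi ran from -1.49 to -1.19 with 1 library left out. The 9 partners passed in none of the 5 comparisons under 23 alternatives, with a lowest adjusted p of 0.108 (limma). Malat1 between injured genotypes ran from -2.27 to -1.30 and also lost its call without injured wild-type replicate 1 or 2. Atp6v0c-ps2 kept its call in both genotype comparisons.

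Small fold changes changed sign. The naive genotype difference of Rogdi was -0.108 at the same total, -0.0151 without both libraries, -0.0314 multiplied back by the library factor, and -0.0151 to 0.211 with 1 library left out. After injury in wild type, Atp6v0c was -0.155 (quantile), -0.0344 (median-ratio), -0.253 (same total), -0.00178 (without both), -0.146 (multiplied back) and -0.00178 to 0.0865 (1 left out). Wdr7 was -0.0443, -0.191 and -0.0962 (quantile, same total, multiplied back). Dmxl2 was 0.0437 and Atp6v1a 0.109 without both, with ranges of -0.576 to 0.0437 and -0.214 to 0.109 (1 left out), and Atp6v1e1 ran from -0.281 to 0.0152. Between injured genotypes, Dmxl2 was 0.0443 (quantile), 0.0210 (median-ratio), 0.282 (same total), 0.0535 (replicate block), 0.194 (multiplied back) and -0.392 to 0.228 (1 left out). Atp6v0c was 0.227 and 0.134 and Atp6v1a 0.195 and 0.103 (same total, multiplied back). With 1 left out Atp6v1a ran from -0.302 to 0.0211, Atp6v0a1 from -0.191 to 0.591 and Dmxl1 from -0.662 to 0.0615. Atp6v1h between naive genotypes was 0.0428 (replicate block). Same-total scaling moved the median of all genes after injury in wild type to -0.21, and between injured genotypes to 0.20; multiplying back moved them to -0.13 and 0.13.

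Counts of genes called were 149 after injury in wild type (110 higher, 39 lower), with 25 without a filter, 77 without the trend, 90 with only the groups compared, 35 without both libraries, and 35 to 311 with 1 left out; the split was 81 to 112 at the same total, 100 to 64 after quantile and 90 to 74 multiplied back. After injury in knockout 9 became 1 (pseudocount 0.1), 33 (no filter), 4 (quantile), 1 (no trend), 0 (only the groups compared), 5 (replicate block), 0 (without both) and 0 to 20 (1 left out). Between naive genotypes 23 became 52 (no filter), 5 (coding genes), 15 (without both) and 17 to 27. Between injured genotypes 41 (27 higher, 14 lower; 35 to 10 at the same total, 32 to 10 multiplied back) became 10 (coding genes), 19 (without both) and 24 to 57. The difference of injury effects had 0, with 13 (no filter), 3 (no trend) and 0 to 2. The cause of these shifts was not tested. Same-numbered replicates did not deviate together (correlations of -0.05 to 0.04 over 13 pairs), so the numbers were not taken to pair libraries; the replicate block is given as a value only.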
